A study of Mus musculus with 6 samples.

Results

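M-CSF macrophages exposed to IL6 for 24 h were set against uncultured bone marrow cells, to ask which gene programmes lay at the marrow level and which stayed macrophage-like. The comparison used 2 of the 6 libraries of the series and the 55536 of 56278 rows of the gene count table that carry a gene name. All 6 libraries came from C57BL/6 mice aged 8 weeks, with no genetic modification named in the labels. The M-BMDM IL6 24 h library (called the 24 h library) holds macrophages grown from bone marrow for 7 days with M-CSF and treated with IL6 for 24 h. The BM library holds bone marrow cells labelled as a control. M-BMDM without IL6 and M-BMDM with IL6 for 3 h are given beside them, and the 2 remaining libraries are GM-CSF macrophages, untreated or with IL6 for 3 h.

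Each group had 1 library, so no difference below has a replicate check and no test across samples was possible. Nothing in the labels says how many animals went into a library, or whether the macrophage libraries shared a culture. The IL6 dose is not given, nor whether M-CSF stayed in the medium during the IL6 hours. An untreated M-BMDM culture of the same 24 h was not analysed here, so IL6 and the added day of culture cannot be told apart. BM is a mixture of many cell types and the 24 h library a culture. In such bulk samples, fewer cells of a type and less RNA per cell cannot be told apart.

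Bone marrow is the site of blood formation, where stem and progenitor cells divide and mature into neutrophils, red cells, platelets, monocytes and lymphocytes. M-CSF, acting through its receptor Csf1r, drives marrow precursors to divide and then mature into adherent macrophages, which are rich in lysosomes and in receptors for particles and dying cells. IL6 binds its receptor Il6ra and the shared chain Il6st, and the JAK kinases then phosphorylate the transcription factor STAT3, whose target Socs3 feeds back on the receptor.

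Levels are given as scaled CPM, the count of a gene brought to a common library size (CPM) by the trimmed mean of M-values (TMM). A gene was compared when 1 of the 2 libraries reached 5 scaled CPM, and it counted as different when its 2 levels were 2-fold apart or more, with 1 outside the exact 95% Clopper-Pearson interval of the ratio. The others are called within 2-fold. Intervals and bounds speak of counting error alone, because each side had 1 library. Reads copied by PCR and lacking molecular identifiers are no independent molecules, so the intervals may be too narrow even for that error. The 24 h library held 21782750 counts of named genes and BM held 21484966, and the other 4 libraries held 18511777 to 24134374.

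Of 11177 genes compared, 1927 were at least 2-fold higher in the 24 h library than in BM (17.2%), 1981 were at least 2-fold lower (17.7%) and 7269 were within 2-fold (65.0%). The median log2 ratio over all 14719 analysed genes was -0.03. M-BMDM without IL6, set against the same BM library, gave 2260 higher (20.1%), 2587 lower (23.0%) and 6398 within 2-fold (56.9%) of 11245 genes, with a median of -0.07. These comparisons share BM and are given side by side only. The median size of the log2 ratio to BM, whatever its sign, was 0.63 for the 24 h library, 0.83 for the 3 h library and 0.82 for M-BMDM. Large differences ran mostly downwards, since 183 genes were at least 16-fold higher in the 24 h library and 764 were at least 16-fold lower.

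**Figure D1:**
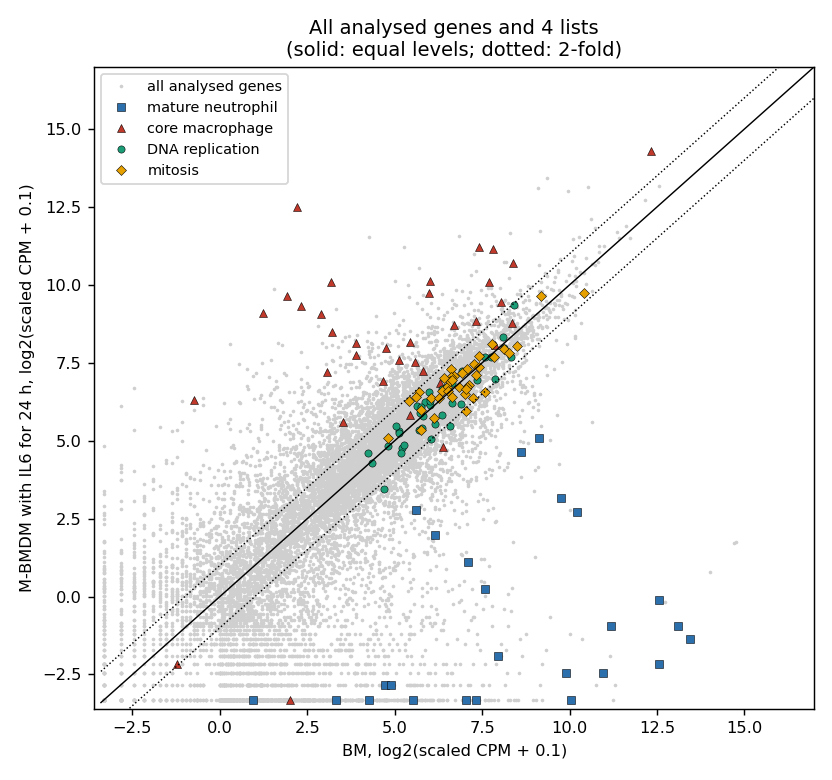
Each point is 1 gene, with its level in BM on the x axis and in M-BMDM with IL6 for 24 h on the y axis, both as log2 of scaled CPM plus 0.1; 4 gene lists are coloured. DNA replication and mitosis genes lie along the line of equal levels, core macrophage genes mostly above it, and mature neutrophil genes below it.

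Genes were grouped into 48 lists of known function, and a list was called at the marrow level, higher or lower when at least 50% of its compared genes fell in that class. 16 lists were at the marrow level, 7 were higher than marrow, 18 were lower, 6 were mixed, and 1 met both of the first conditions with equal counts. As 65.0% of all compared genes were within 2-fold, a list can be called at the marrow level with a smaller share than that. List medians below cover every gene of a list found in the table, with a prior count of 2 added.

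**Figure D2:**
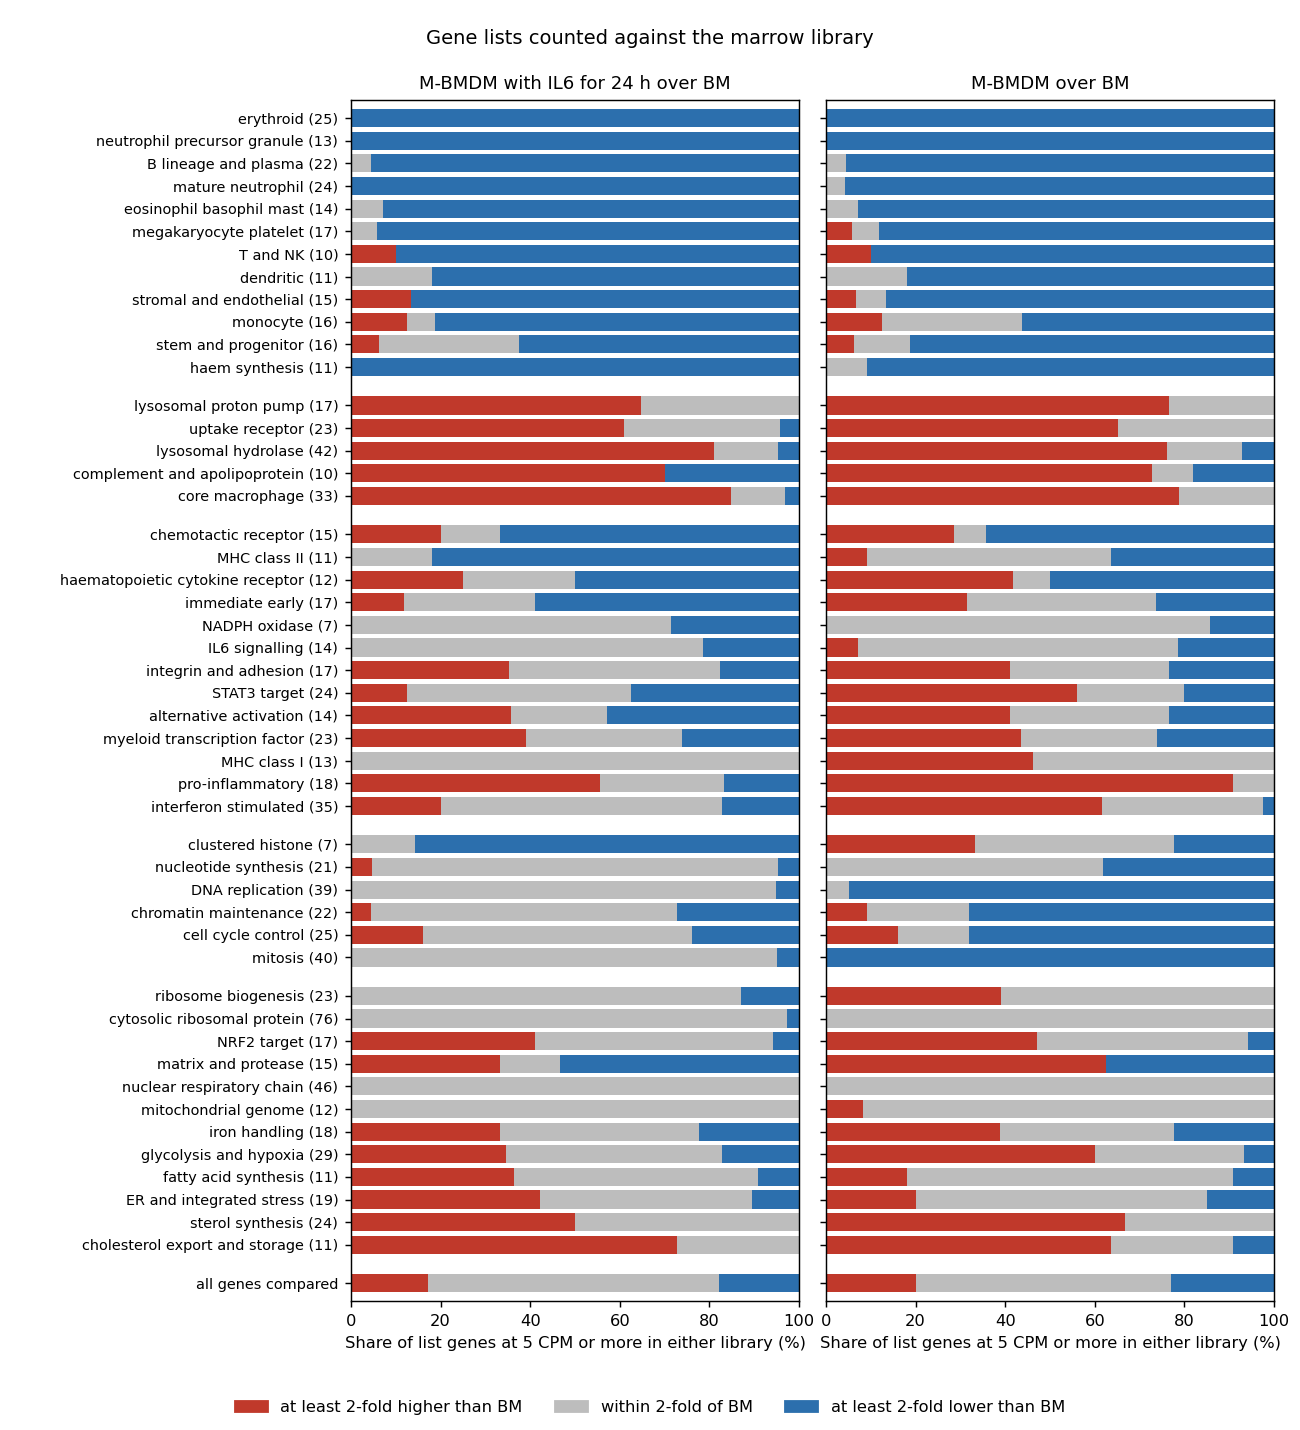
Bars give, for each of 48 gene lists, the share of compared genes that were at least 2-fold higher than BM, within 2-fold or at least 2-fold lower, for M-BMDM with IL6 for 24 h (left) and M-BMDM (right). Numbers in brackets are the genes compared on the left, and the lowest bar is all genes; DNA replication and mitosis are nearly all grey on the left and nearly all blue on the right.

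The machinery of cell division stood at the marrow level. Of 39 genes for DNA replication, 37 were within 2-fold of BM in the 24 h library, 2 were lower and 0 were higher, with a median log2 ratio of 0.02. In M-BMDM, 37 of these 39 genes were at least 2-fold below BM and the median was -2.84. Of 40 mitosis genes, 38 were within 2-fold in the 24 h library and 2 were lower, with a median of 0.15. In M-BMDM every one of the 40 was at least 2-fold below BM, with a median of -2.44.

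Mcm5, a subunit of the helicase that unwinds DNA at replication forks, had 19.8 scaled CPM in M-BMDM, 25 at 3 h, 253 at 24 h, and 278 in BM (log2 ratio -0.14, 95% interval -0.19 to -0.09). Mcm6, of the same helicase, had 50.9 scaled CPM in M-BMDM, 58.1 at 3 h, 319 at 24 h, and 273 in BM (log2 ratio 0.22, 95% interval 0.18 to 0.27). Both genes in the 24 h library lay near BM, while the 3 h library lay near M-BMDM. The 6 subunits Mcm2 to Mcm7 ran from a log2 ratio of -0.89 for Mcm2 to 0.22 for Mcm6 against BM. Pcna, the sliding clamp that holds polymerases on DNA, had 306 scaled CPM in M-BMDM, 307 at 3 h, 649 at 24 h, and 343 in BM (log2 ratio 0.92, 95% interval 0.88 to 0.96). Pcna was thus already near the BM level in M-BMDM, unlike most of the list, and lay near the upper edge of the 2-fold range after 24 h.

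The genes counted as lower were both loaders of the helicase at replication origins. Cdc6 had 2.31 scaled CPM in M-BMDM, 3.08 at 3 h, 44.1 at 24 h, and 95.7 in BM (log2 ratio -1.12, 95% interval -1.22 to -1.01), and Orc1 had 0.966 scaled CPM in M-BMDM, 0.997 at 3 h, 10.8 at 24 h, and 26 in BM (log2 ratio -1.26, 95% interval -1.48 to -1.05). Each exceeded its M-BMDM level in the 24 h library but stayed under BM.

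Among mitosis genes, Mki67, the antigen used to mark dividing cells, had 126 scaled CPM in M-BMDM, 111 at 3 h, 859.7 at 24 h, and 1368 in BM (log2 ratio -0.67, 95% interval -0.70 to -0.65). Top2a, which untangles chromosomes before they part, had 90.6 scaled CPM in M-BMDM, 92.1 at 3 h, 801 at 24 h, and 577 in BM (log2 ratio 0.47, 95% interval 0.44 to 0.50). The condensin subunit Ncapd2 had 26.7 scaled CPM in M-BMDM, 25.9 at 3 h, 261 at 24 h, and 362 in BM (log2 ratio -0.47, 95% interval -0.52 to -0.42). All 3 stood within 2-fold of BM after 24 h, Top2a above it and the others below. Cdc20 and Ube2c, which direct the ubiquitin ligase that ends mitosis, were the 2 counted as lower, at 62 scaled CPM in the 24 h library and 132 in BM for Cdc20 (log2 ratio -1.09, 95% interval -1.18 to -1.0), and 95.1 scaled CPM in the 24 h library and 192 in BM for Ube2c (log2 ratio -1.01, 95% interval -1.09 to -0.94). Both lay close to the 2-fold limit.

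Of 21 nucleotide synthesis genes, 19 were within 2-fold of BM (90.5%, against 65.0% of all genes), 1 was higher and 1 was lower. In M-BMDM, 13 of 21 were within 2-fold (61.9%, near the 56.9% of all genes) and 8 were lower. The list was called at the marrow level in M-BMDM too. Rrm2, the regulated subunit of the enzyme that makes deoxynucleotides, had 18 scaled CPM in M-BMDM, 21.6 at 3 h, 308 at 24 h, and 335 in BM (log2 ratio -0.12, 95% interval -0.17 to -0.08). Rrm1, its partner subunit, had 44.9 scaled CPM in M-BMDM, 49.1 at 3 h, 431 at 24 h, and 340.2 in BM (log2 ratio 0.34, 95% interval 0.30 to 0.38). The mitochondrial folate enzyme Mthfd2 was the higher one (74.5 scaled CPM in the 24 h library and 34.5 in BM), and the dUTPase gene Dut the lower one (41.8 scaled CPM in the 24 h library and 92 in BM).

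**Figure D3:**
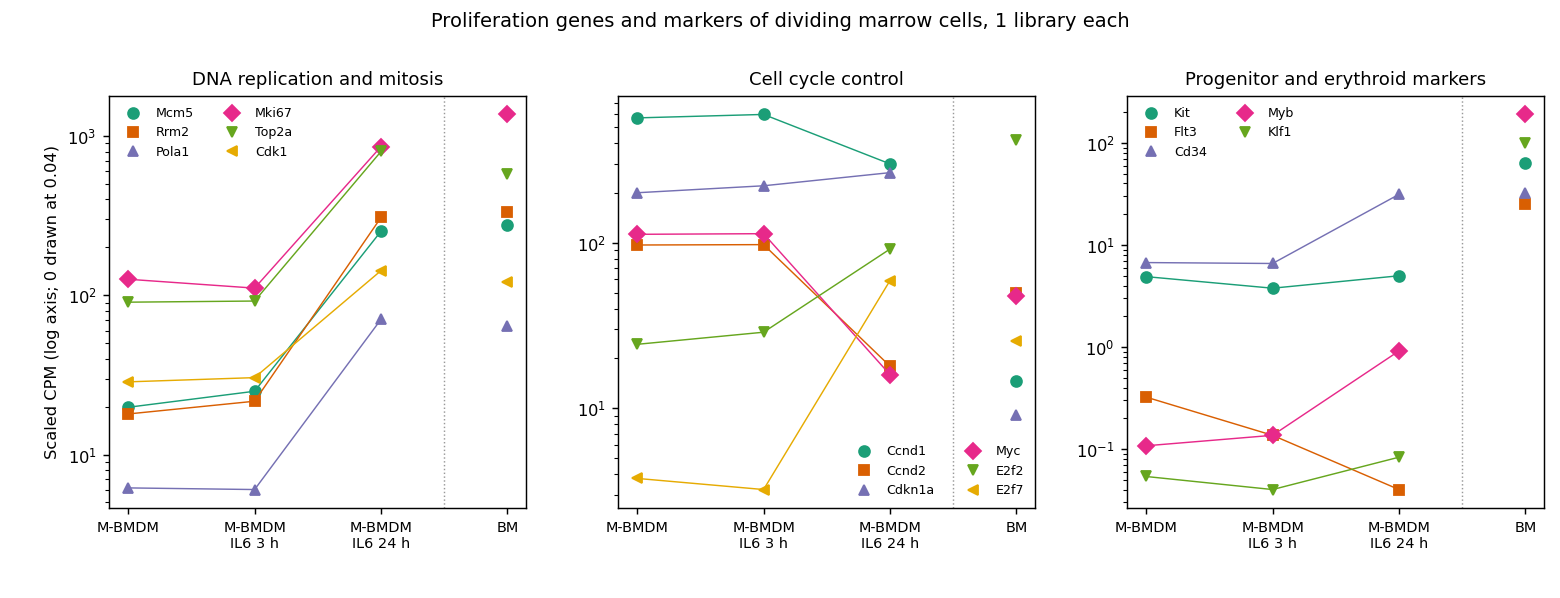
Points give scaled CPM on a log axis in M-BMDM, after 3 h and 24 h of IL6, and in BM (right of the dotted line), 1 library each; lines join the macrophage libraries and 0 is drawn at 0.04. Replication and mitosis genes reach the BM level at 24 h, and Ccnd1 and Cdkn1a stay above BM. Kit, Flt3, Myb and Klf1 stay far below BM, whereas Cd34 reaches the BM level at 24 h.

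Promoters of these lists are shown because their members moved together between the macrophage libraries. The words searched, on both strands, were the E2F words TTTGGCGC, TTTCCCGC and TTTGGCGG, the cell cycle homology word TTTGAA, and CCAAT; the first and last of the E2F words differ in their last letter only, and no word contains another. E2F factors act on replication genes at the entry into DNA synthesis, and CCAAT and cell cycle homology elements are known in mitosis genes. RefSeq promoters (build GRCm38.p6, 250 bases before to 50 after a listed start) were found for 30 replication genes and 33 mitosis genes. A gene with several starts was counted when any of its promoters held the word. An E2F word stood in 14 of the 30 replication genes (46.7%) and in 2 of the 33 mitosis genes (6.06%). The share was 4.3% of the 10701 analysed genes with a searched promoter and 2.39% of all 27025 genes searched. The word TTTGAA together with CCAAT stood in 22 mitosis genes (66.7%) and 3 replication genes (10%), against 6.06% of analysed genes and 7.97% of all genes. Among promoters of lysosomal hydrolase genes, which did not follow the marrow level, 0 of 34 held an E2F word and 1 held the pair. Lists outside the marrow level were not all so low. Of 16 stem and progenitor genes, a list called lower, 3 held an E2F word and 1 the pair. Of 15 alternative activation genes, a mixed list, 0 held an E2F word and 3 the pair. Other lists called at the marrow level varied. Of 56 ribosomal protein genes, 0 held an E2F word and 0 the pair. For 34 respiratory chain genes the counts were 2 and 1, and for 19 nucleotide synthesis genes 1 and 0. For 20 chromatin maintenance genes they were 5 and 7, and for 20 cell cycle control genes 6 and 3. For 18 ribosome assembly genes they were 3 and 0, and for 11 MHC class I genes 2 and 1. A match describes letters and not a bound site.

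Replication promoters follow, 5′ to 3′ along the gene, with the E2F words in capitals. They come from genes within 2-fold of BM that hold an E2F word and have a single listed promoter. They were picked among those ranked highest by number of words and, at equal numbers, by level in the 24 h library. They are therefore not typical of the list. Mcm6 lies at chr1:128359656-128359955 on the minus strand, Mcm3 at chr1:20820263-20820562 on the minus strand and Mcm5 at chr8:75109259-75109558 on the plus strand.
Mcm6: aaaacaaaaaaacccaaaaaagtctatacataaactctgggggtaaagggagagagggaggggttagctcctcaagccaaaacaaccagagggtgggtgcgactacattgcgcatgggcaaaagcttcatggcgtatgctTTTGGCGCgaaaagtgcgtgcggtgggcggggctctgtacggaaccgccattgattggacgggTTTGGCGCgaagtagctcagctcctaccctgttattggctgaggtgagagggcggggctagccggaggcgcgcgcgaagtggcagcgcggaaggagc
Mcm3: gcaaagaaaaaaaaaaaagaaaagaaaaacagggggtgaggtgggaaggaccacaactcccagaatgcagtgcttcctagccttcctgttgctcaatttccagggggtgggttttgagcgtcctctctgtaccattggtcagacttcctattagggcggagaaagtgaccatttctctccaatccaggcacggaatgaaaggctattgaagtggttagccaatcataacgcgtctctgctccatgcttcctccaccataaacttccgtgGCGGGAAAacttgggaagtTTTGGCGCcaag
Mcm5: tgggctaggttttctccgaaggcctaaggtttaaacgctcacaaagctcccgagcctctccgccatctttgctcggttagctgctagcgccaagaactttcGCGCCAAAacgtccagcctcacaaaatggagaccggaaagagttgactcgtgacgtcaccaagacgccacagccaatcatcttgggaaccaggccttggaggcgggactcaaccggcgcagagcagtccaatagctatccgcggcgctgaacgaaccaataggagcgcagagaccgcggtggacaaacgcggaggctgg
Mcm6 held the word TTTGGCGC at 2 places, Mcm3 held TTTCCCGC on the reverse strand and TTTGGCGC, and Mcm5 held 1 word on the reverse strand.

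Mitosis promoters follow with TTTGAA and CCAAT, on either strand, in capitals. They too were picked among those ranked highest by number of words and then by level in the 24 h library. All came from genes holding both words, and they are not typical of the list. Top2a lies at chr11:99024140-99024439 on the minus strand, Mki67 at chr7:135716330-135716629 on the minus strand and Cdk1, the kinase that drives entry into mitosis, at chr10:69352863-69353162 on the minus strand.
Top2a: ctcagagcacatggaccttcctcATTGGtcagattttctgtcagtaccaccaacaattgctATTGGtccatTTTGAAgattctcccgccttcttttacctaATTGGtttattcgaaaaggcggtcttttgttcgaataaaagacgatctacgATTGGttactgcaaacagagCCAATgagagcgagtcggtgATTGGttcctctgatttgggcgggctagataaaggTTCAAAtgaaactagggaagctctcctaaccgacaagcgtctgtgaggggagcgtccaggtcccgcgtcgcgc
Mki67: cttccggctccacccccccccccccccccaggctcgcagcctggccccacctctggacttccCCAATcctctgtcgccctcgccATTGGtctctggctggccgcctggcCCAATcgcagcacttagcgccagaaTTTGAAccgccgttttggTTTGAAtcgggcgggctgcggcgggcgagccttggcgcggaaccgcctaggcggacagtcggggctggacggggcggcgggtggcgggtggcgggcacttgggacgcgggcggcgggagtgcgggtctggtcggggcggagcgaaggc
Cdk1: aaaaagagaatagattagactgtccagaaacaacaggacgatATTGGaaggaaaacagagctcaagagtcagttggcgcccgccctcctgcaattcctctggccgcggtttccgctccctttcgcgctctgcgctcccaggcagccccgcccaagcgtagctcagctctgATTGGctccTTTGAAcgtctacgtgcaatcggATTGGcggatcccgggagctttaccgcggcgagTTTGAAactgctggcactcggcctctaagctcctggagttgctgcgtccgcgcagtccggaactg
Top2a held 8 such words, and Mki67 and Cdk1 held 5 each. Cdk1 had 28.6 scaled CPM in M-BMDM, 30.4 at 3 h, 143 at 24 h, and 121 in BM (log2 ratio 0.25, 95% interval 0.17 to 0.32), so it too stood at the marrow level after 24 h.

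Regulators of the cell cycle were less uniform. Of 27 genes, 25 were compared, of which 4 were higher than BM, 15 were within 2-fold (60%, near the 65.0% of all genes) and 6 were lower. In M-BMDM the counts were 4 higher, 4 within 2-fold and 17 lower. Ccnd1, the cyclin that relays growth factor signals, had 569 scaled CPM in M-BMDM, 597 at 3 h, 300.1 at 24 h, and 14.6 in BM (log2 ratio 4.36, 95% interval 4.21 to 4.52). Cdkn1a, the p21 inhibitor of cyclin-dependent kinases, had 201 scaled CPM in M-BMDM, 221 at 3 h, 266 at 24 h, and 9.05 in BM (log2 ratio 4.88, 95% interval 4.68 to 5.08). Both stayed far above BM in every M-BMDM library. In the GM-CSF macrophage libraries, without IL6 and after 3 h, Cdkn1a had 292 and 289 scaled CPM. Ccnd1 had 19.7 and 16.3 there, near BM, so its high level was not shared by all macrophage libraries. Cdkn1c, another inhibitor of that family, had 39.7 scaled CPM in M-BMDM, 48.6 at 3 h, 9.63 at 24 h, and 1.65 in BM.

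The other cyclin D genes lay below BM. Ccnd3 had 45.3 scaled CPM in M-BMDM, 50 at 3 h, 72.3 at 24 h, and 549 in BM (log2 ratio -2.93, 95% interval -3.0 to -2.85). Myc, the growth regulator, had 113 scaled CPM in M-BMDM, 114 at 3 h, 15.9 at 24 h, and 47.8 in BM (log2 ratio -1.58, 95% interval -1.75 to -1.42). Myc therefore lay above BM at 0 h and 3 h and below BM at 24 h, while the replication genes moved the other way. Of the E2F family, E2f7, a repressor member, was higher (59.1 scaled CPM in the 24 h library and 25.5 in BM), E2f8 was within 2-fold (111 scaled CPM in the 24 h library and 142 in BM), and E2f2, an activator, was lower (91.7 scaled CPM in the 24 h library and 420.2 in BM). Foxm1, a transcription factor of mitosis genes, had 12 scaled CPM in M-BMDM, 13.5 at 3 h, 139 at 24 h, and 93.8 in BM (log2 ratio 0.57, 95% interval 0.49 to 0.64).

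Chromatin maintenance genes split. Of 22 genes, 15 were within 2-fold of BM (68.2%, near the 65.0% of all genes), 6 were lower and 1 was higher, against 5 within 2-fold and 15 lower of 22 in M-BMDM. Dnmt1, which copies DNA methylation after replication, had 111 scaled CPM in M-BMDM, 104 at 3 h, 384 at 24 h, and 349 in BM (log2 ratio 0.14, 95% interval 0.10 to 0.18). The high mobility group gene Hmgb2 had 74.2 scaled CPM in M-BMDM, 68.9 at 3 h, 186 at 24 h, and 883 in BM (log2 ratio -2.25, 95% interval -2.29 to -2.2), so it stayed low. Of 67 clustered histone genes, only 7 reached 5 scaled CPM in either library, and 6 of them were lower than BM. Most replication-dependent histone mRNAs lack a poly(A) tail, and the labels do not name the RNA selection. The linker histone gene Hist1h1c had 467 scaled CPM in M-BMDM, 467 at 3 h, 9.63 at 24 h, and 101 in BM (log2 ratio -3.4, 95% interval -3.6 to -3.2), which put it above BM before 24 h and below BM at 24 h. Histone genes have near-identical copies, so their counts are uncertain.

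Stem and progenitor genes were mostly lower than BM. The summed level of the 19 stem and progenitor genes was 311 scaled CPM in M-BMDM, 299 at 3 h and 299 at 24 h, against 899 in BM. The summed mitosis genes stood at 1029, 992 and 6402 in the same macrophage libraries and 6801 in BM. In the GM-CSF macrophage libraries the summed mitosis genes stood at 1376 without IL6 and 1353 after 3 h. Of the 19 progenitor genes, 10 were lower than BM, 5 were within 2-fold and 1 was higher, of 16 compared, against 13 lower, 2 within 2-fold and 1 higher of 16 in M-BMDM. Kit, the stem cell factor receptor, had 4.98 scaled CPM in the 24 h library and 62.8 in BM, and Myb, a factor of immature blood cells, had 0.913 scaled CPM in the 24 h library and 190.0 in BM. Flt3, a receptor of early progenitors, had 0 counts in the 24 h library and 25.3 scaled CPM in BM, at least 203-fold lower.

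A few genes of that list were at the BM level. Cd34, a surface marker of progenitors and other cells, had 6.71 scaled CPM in M-BMDM, 6.57 at 3 h, 31.3 at 24 h, and 32.3 in BM (log2 ratio -0.04, 95% interval -0.19 to 0.10). Lmo2, a bridging factor of blood transcription complexes, had 48.9 scaled CPM in M-BMDM, 48.5 at 3 h, 112 at 24 h, and 166 in BM (log2 ratio -0.57, 95% interval -0.64 to -0.50). The kinase gene Cdk6 had 194 scaled CPM in M-BMDM, 182 at 3 h, 105 at 24 h, and 110.1 in BM (log2 ratio -0.07, 95% interval -0.15 to 0.01), and was within 2-fold in M-BMDM as well. Cd34 and Lmo2 stood above their M-BMDM levels and Cdk6 below its own, so that the near-equal sums cover members that differed in opposite directions, whereas Kit, Myb and Flt3 stayed near 0 or under 5 scaled CPM in every M-BMDM library.

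Growth programmes were mostly at the marrow level. All 46 nuclear respiratory chain genes and all 12 compared genes of the mitochondrial genome were within 2-fold of BM in the 24 h library. Of 76 ribosomal protein genes, 74 were within 2-fold. M-BMDM gave similar counts, at 46 of 46, 11 of 12 and 76 of 76. Ribosome assembly genes differed between the libraries. Of 23, 20 were within 2-fold of BM and 3 lower in the 24 h library, with a median of -0.34, against 9 higher and 14 within 2-fold in M-BMDM, with a median of 0.89. The shares within 2-fold were 87.0% and 60.9%, against 65.0% and 56.9% of all genes. Both libraries had the marrow level call. Ddx21, a helicase of ribosomal RNA synthesis, had 285 scaled CPM in M-BMDM, 258 at 3 h, 114 at 24 h, and 112 in BM (log2 ratio 0.03, 95% interval -0.05 to 0.10). The lower ones were Fbl, a methyltransferase of ribosomal RNA (46.2 scaled CPM in the 24 h library and 93.1 in BM), Dkc1, a pseudouridine synthase (18.2 scaled CPM in the 24 h library and 58.8 in BM), and Odc1. Odc1, which like Srm in this list is an enzyme of polyamine synthesis and no assembly factor, had 622 scaled CPM in M-BMDM, 619.6 at 3 h, 48.3 at 24 h, and 381 in BM (log2 ratio -2.98, 95% interval -3.07 to -2.89).

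Inflammatory genes lay nearer the marrow level than in M-BMDM, and few reached it. Of 26 pro-inflammatory genes, 18 were compared, with 10 higher than BM, 5 within 2-fold and 3 lower, and the median over all 26 was 0.33. In M-BMDM, 20 of 22 were higher, with a median of 3.64. The summed level of the list was 4567 scaled CPM in M-BMDM, 4228 at 3 h and 571 at 24 h, against 375 in BM. The list was called higher than marrow, and mixed when the compared genes were taken from 1 CPM.

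Acod1, which makes the metabolite itaconate, had 1548 scaled CPM in M-BMDM, 1377 at 3 h, 28.9 at 24 h, and 6.13 in BM (log2 ratio 2.24, 95% interval 1.98 to 2.5). The monocyte attractant Ccl2 had 321 scaled CPM in M-BMDM, 278 at 3 h, 44.4 at 24 h, and 0.823 in BM (log2 ratio 5.75, 95% interval 5.12 to 6.47). Both were far below their M-BMDM level at 24 h, yet above BM. Il1b, the cytokine interleukin-1 beta, had 259.8 scaled CPM in M-BMDM, 246 at 3 h, 0.913 at 24 h, and 55.2 in BM (log2 ratio -5.92, 95% interval -6.6 to -5.31), which put it below BM. Tnfaip3, an inhibitor of NF-kappaB signalling, had 155 scaled CPM in M-BMDM, 145 at 3 h, 24.8 at 24 h, and 29.5 in BM (log2 ratio -0.25, 95% interval -0.41 to -0.09). Nfkbia, another such inhibitor, had 247 scaled CPM in M-BMDM, 233 at 3 h, 65.3 at 24 h, and 78.6 in BM (log2 ratio -0.27, 95% interval -0.36 to -0.17). These inhibitors stood at the marrow level after 24 h and above it before.

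The IL6 receptor chains and Stat3 were within 2-fold of BM in both the 24 h library and M-BMDM. Il6ra had 59.1 scaled CPM in M-BMDM, 60.7 at 3 h, 96.5 at 24 h, and 99.5 in BM (log2 ratio -0.04, 95% interval -0.13 to 0.04). Il6st had 97.5 scaled CPM in M-BMDM, 95.8 at 3 h, 121 at 24 h, and 66 in BM (log2 ratio 0.88, 95% interval 0.79 to 0.97), and Stat3 had 148 scaled CPM in M-BMDM, 160.4 at 3 h, 132 at 24 h, and 164 in BM (log2 ratio -0.32, 95% interval -0.39 to -0.25). None of these was counted as different from BM. Of 17 signalling genes, 14 were compared, 11 were within 2-fold (78.6%, against 65.0% of all genes) and 3 were lower. In M-BMDM, 10 of 14 were within 2-fold, and the list had the same call. The lower ones were the kinase gene Jak2 (34.8 scaled CPM in the 24 h library and 98.4 in BM) and the feedback inhibitors Socs3 and Cish. Socs3 had 102 scaled CPM in M-BMDM, 99.3 at 3 h, 7.6 at 24 h, and 15.5 in BM (log2 ratio -1.03, 95% interval -1.29 to -0.77), and Cish had 0.249 scaled CPM in the 24 h library and 5.92 in BM (log2 ratio -4.57, 95% interval -6.04 to -3.41). Socs3 in the 24 h library was thus just outside the 2-fold range, below both M-BMDM and BM.

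Of 27 known STAT3 targets, 24 were compared, with 3 higher than BM, 12 within 2-fold and 9 lower, against 14 higher, 6 within and 5 lower of 25 in M-BMDM. The share within 2-fold was 50%, under the 65.0% of all genes. Cebpb, a transcription factor of inflammation, had 236 scaled CPM in M-BMDM, 155 at 3 h, 22 at 24 h, and 22.1 in BM (log2 ratio -0.01). The angiogenic factor gene Vegfa had 260.3 scaled CPM in M-BMDM, 221 at 3 h, 17.9 at 24 h, and 24.6 in BM (log2 ratio -0.46). Birc5, an inhibitor of apoptosis that also acts in mitosis, had 15 scaled CPM in M-BMDM, 15.6 at 3 h, 109 at 24 h, and 139 in BM (log2 ratio -0.35, 95% interval -0.42 to -0.27). Cebpb and Vegfa came down to the BM level and Birc5 came up to it. The acute phase gene Saa3 stayed above BM (16.2 scaled CPM in the 24 h library and 0.0823 in BM, 2 counts there), while haptoglobin, Hp, stayed far below (0.54 scaled CPM in the 24 h library and 690.4 in BM).

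**Figure D4:**
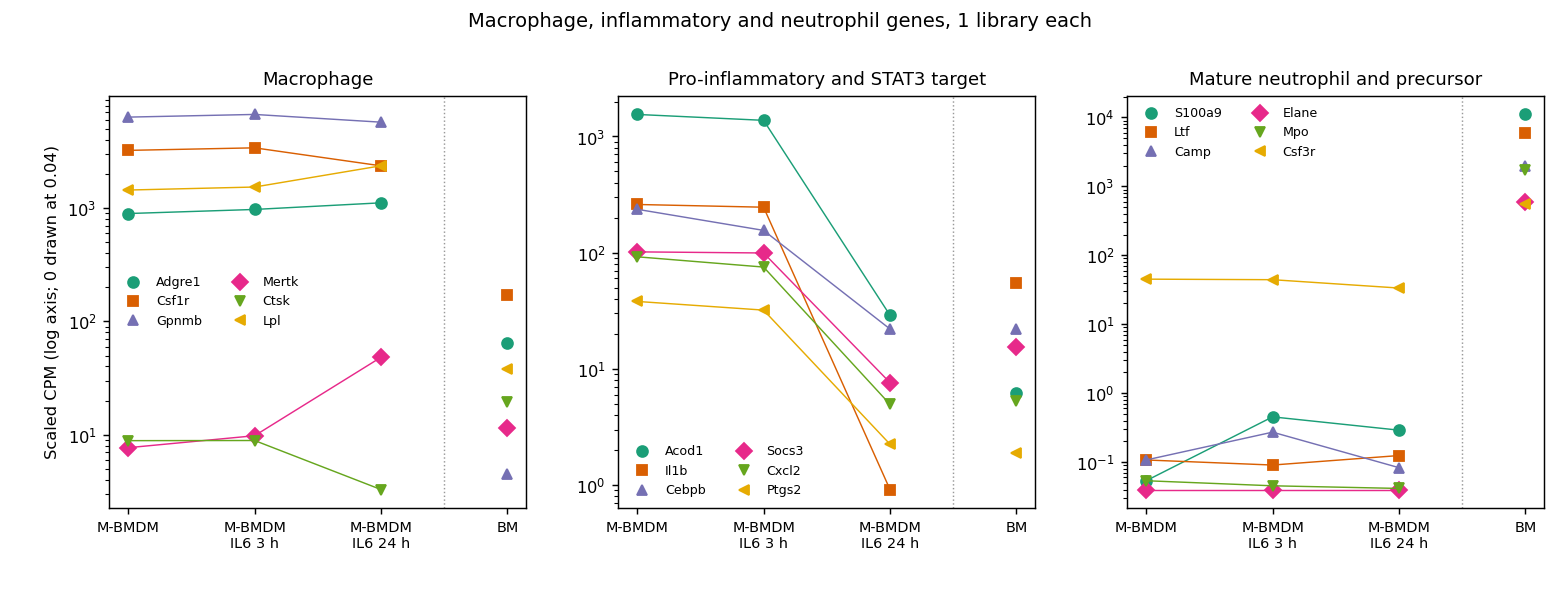
Points give scaled CPM on a log axis in M-BMDM, after 3 h and 24 h of IL6, and in BM (right of the dotted line), 1 library each; lines join the macrophage libraries and 0 is drawn at 0.04. Macrophage genes such as Gpnmb and Csf1r stay above BM, inflammatory genes drop at 24 h towards or below BM, and neutrophil genes stay far below BM throughout.

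Interferon-stimulated genes were called at the marrow level, with 22 of 35 within 2-fold, 7 higher and 6 lower, against 24 higher of 39 in M-BMDM. The share within 2-fold was 62.9%, near the 65.0% of all genes. Rsad2, the antiviral enzyme viperin, had 103 scaled CPM in M-BMDM, 82.2 at 3 h, 14.2 at 24 h, and 159 in BM (log2 ratio -3.48, 95% interval -3.65 to -3.32). Rtp4 stayed higher (51.1 scaled CPM in the 24 h library and 12.9 in BM), as did the oligoadenylate synthetase gene Oas1g (38.2 scaled CPM in the 24 h library and 8.89 in BM).

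MHC class I genes were all within 2-fold of BM, 13 of 13, against 65.0% of all genes. In M-BMDM, 7 of 13 were within 2-fold (53.8%, near the 56.9% of all genes) and 6 were higher. The list was called at the marrow level in M-BMDM too. H2-K1, a classical class I heavy chain, had 1318 scaled CPM in M-BMDM, 1425 at 3 h, 707 at 24 h, and 638 in BM (log2 ratio 0.15, 95% interval 0.12 to 0.18). B2m, the light chain of class I, had 1919.9 scaled CPM in M-BMDM, 1785 at 3 h, 1351 at 24 h, and 818 in BM (log2 ratio 0.72, 95% interval 0.70 to 0.75). MHC class II genes were mostly lower than BM, with 9 of 11 lower and a median of -2.07, against 4 lower in M-BMDM. The invariant chain gene Cd74 had 876 scaled CPM in M-BMDM, 1016 at 3 h, 346 at 24 h, and 534 in BM (log2 ratio -0.63, 95% interval -0.67 to -0.59), and so was not counted as different. H2-Ab1, a classical class II beta chain, had 281 scaled CPM in M-BMDM, 326 at 3 h, 45.1 at 24 h, and 179 in BM (log2 ratio -1.99, 95% interval -2.08 to -1.89), which put it below BM at 24 h only. H2-Ob, a class II modulator of B cells, had 1.02 scaled CPM in M-BMDM, 1.09 at 3 h, 1.12 at 24 h, and 65.4 in BM (log2 ratio -5.87, 95% interval -6.47 to -5.32), and was as low in M-BMDM. H2 genes resemble each other in sequence, so reads between them could be split.

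Of 17 compared immediate early genes, 10 were lower than BM, 5 were within 2-fold and 2 were higher. Fos, a subunit of the AP-1 factor, had 170.3 scaled CPM in M-BMDM, 182 at 3 h, 49.3 at 24 h, and 92.7 in BM (log2 ratio -0.91, 95% interval -1.01 to -0.81). Atf3, a stress-induced factor, stayed above BM (139 scaled CPM in the 24 h library and 3.62 in BM), whereas the antiproliferative gene Btg2 stayed below (35.3 scaled CPM in the 24 h library and 232 in BM). The matrix and protease list was also called lower, with 8 of 15 lower and 5 higher, against 10 higher of 16 in M-BMDM. That call became mixed under scaling by total counts. Mmp14, a membrane collagenase, had 309 scaled CPM in M-BMDM, 357 at 3 h, 16 at 24 h, and 17.4 in BM (log2 ratio -0.12, 95% interval -0.32 to 0.09), and so reached BM. Mmp12, the macrophage elastase, did not (272 scaled CPM in the 24 h library and 1.11 in BM, log2 ratio 7.94).

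The macrophage programme stayed above BM. Of 35 core macrophage genes, 33 were compared and 28 were at least 2-fold higher in the 24 h library than in BM. Of the rest, 4 were within 2-fold and 1 was lower. Among all genes, 17.2% were higher. In M-BMDM, 26 of 33 core macrophage genes were higher and 7 were within 2-fold. The median log2 ratio was 2.47 in the 24 h library and 3.38 in M-BMDM. Adgre1, the F4/80 antigen, had 896 scaled CPM in M-BMDM, 973 at 3 h, 1114 at 24 h, and 64.1 in BM (log2 ratio 4.12, 95% interval 4.05 to 4.19). Csf1r, the M-CSF receptor, had 3234 scaled CPM in M-BMDM, 3406 at 3 h, 2363 at 24 h, and 171 in BM (log2 ratio 3.78, 95% interval 3.74 to 3.83). Gpnmb, a glycoprotein of lipid-laden macrophages, had 6359 scaled CPM in M-BMDM, 6715 at 3 h, 5737 at 24 h, and 4.48 in BM (log2 ratio 10.32, 95% interval 10.05 to 10.61). These defining markers match the label of a macrophage culture in all M-BMDM libraries.

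Set against M-BMDM, 7 of 33 core macrophage genes were at least 2-fold lower in the 24 h library, 3 were higher and 23 were within 2-fold, with a median log2 ratio of -0.33. Cd14, a co-receptor for bacterial lipopolysaccharide, was among the lower ones, with 1506 scaled CPM in M-BMDM, 1797 at 3 h, 529.5 at 24 h, and 7.36 in BM (log2 ratio 6.17, 95% interval 5.96 to 6.39). Mertk and Folr2 were among the higher ones. Mertk, a receptor for dying cells, had 7.68 scaled CPM in M-BMDM, 9.79 at 3 h, 48.2 at 24 h, and 11.4 in BM (log2 ratio 2.09, 95% interval 1.9 to 2.28). Folr2, a folate receptor of tissue macrophages, had 19.4 scaled CPM in M-BMDM, 29.7 at 3 h, 78.9 at 24 h, and 0.494 in BM (log2 ratio 7.32, 95% interval 6.51 to 8.28). Mertk in M-BMDM was below BM but within 2-fold of it, and at 24 h it was counted as higher than BM. The myeloid master factor gene Spi1 was within 2-fold (269 scaled CPM in the 24 h library and 231 in BM), as was the adaptor gene Tyrobp (439 scaled CPM in the 24 h library and 327 in BM). Mertk and Adgre1 are outside the naming rule and were chosen after their values were seen, as were Cd14, C3, H2-Ab1, Srm, Mcm2, Mcm3, Cdk1, E2f2, E2f7, Kit, Klf1, Acod1, Cebpb and Vegfa.

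Lysosomal genes stayed macrophage-like. Of 42 hydrolase and membrane genes, 34 were higher than BM, 6 were within 2-fold and 2 were lower, with a median of 2.12. Their summed share of the library was 5.2% in M-BMDM, 5.49% at 3 h and 4.67% at 24 h, against 0.712% in BM. Lipa, the lysosomal acid lipase, had 878 scaled CPM in M-BMDM, 901 at 3 h, 1490.4 at 24 h, and 51.9 in BM (log2 ratio 4.84, 95% interval 4.76 to 4.93). Ctsl, the protease cathepsin L, had 822 scaled CPM in M-BMDM, 836 at 3 h, 1126 at 24 h, and 31.8 in BM (log2 ratio 5.14, 95% interval 5.04 to 5.25). Arsb, a sulfatase of glycosaminoglycans, was an exception at the BM level, with 23.5 scaled CPM in M-BMDM, 26.9 at 3 h, 89.7 at 24 h, and 97.5 in BM. Of 17 proton pump genes, 11 were higher and the other 6 were within 2-fold. Atp6v1a, the pump's catalytic subunit, had 668 scaled CPM in the 24 h library and 103 in BM (log2 ratio 2.7, 95% interval 2.64 to 2.76).

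Uptake receptors followed, with 14 of 23 higher than BM, 8 within 2-fold and 1 lower. Trem2, a lipid receptor of macrophages, had 644 scaled CPM in the 24 h library and 4.85 in BM (log2 ratio 7.05, 95% interval 6.79 to 7.33), and the scavenger receptor gene Stab1 had 1084 scaled CPM in the 24 h library and 8.93 in BM (log2 ratio 6.92, 95% interval 6.73 to 7.12). Of 10 complement and apolipoprotein genes, 7 were higher and 3 were lower, against 8 higher, 1 within 2-fold and 2 lower of 11 in M-BMDM. C1qb, a chain of the first complement component, had 1028 scaled CPM in the 24 h library and 41.4 in BM (log2 ratio 4.63, 95% interval 4.54 to 4.73), while Serping1, an inhibitor of that component, had 0.789 scaled CPM in the 24 h library and 21.5 in BM (log2 ratio -4.77, 95% interval -5.51 to -4.11). Both genes had the same direction in M-BMDM, at log2 ratios of 4.76 for C1qb and -5.06 for Serping1. C3, the central complement component, was lower at 24 h but within 2-fold in M-BMDM, with 503 scaled CPM in M-BMDM, 513 at 3 h, 159 at 24 h, and 750.3 in BM (log2 ratio -2.24, 95% interval -2.29 to -2.19).

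Cholesterol export and storage genes stayed above BM, 8 of 11, with a median of 2.41. Apoe, the lipid carrier apolipoprotein E, had 4690.0 scaled CPM in M-BMDM, 5363 at 3 h, 3237 at 24 h, and 312 in BM (log2 ratio 3.37, 95% interval 3.34 to 3.41). Lpl, the lipoprotein lipase, had 1444 scaled CPM in M-BMDM, 1536 at 3 h, 2365 at 24 h, and 38.3 in BM (log2 ratio 5.95, 95% interval 5.86 to 6.04). Sterol synthesis was split evenly, 12 higher and 12 within 2-fold of 24, against 16 higher in M-BMDM. Sqle, an oxygenase of that pathway, had 193 scaled CPM in M-BMDM, 207 at 3 h, 59.7 at 24 h, and 16.3 in BM (log2 ratio 1.88, 95% interval 1.72 to 2.04). Fatty acid synthesis was called at the marrow level with 6 of 11 within 2-fold, a share of 54.5% that is under the background. Scd1, a desaturase, stayed low (4.86 scaled CPM in the 24 h library and 78.1 in BM), and Fads1, another desaturase, stayed high (144 scaled CPM in the 24 h library and 32 in BM).

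Glycolysis and hypoxia genes were mixed, with 10 higher than BM, 14 within 2-fold and 5 lower of 29. Iron handling genes were mixed too, with 6 higher, 8 within 2-fold and 4 lower of 18. The ferritin heavy chain gene Fth1 stayed high (8327 scaled CPM in the 24 h library and 995 in BM, log2 ratio 3.07). The iron exporter gene Slc40a1 had 11.4 scaled CPM in M-BMDM, 11.5 at 3 h, 95.7 at 24 h, and 187 in BM (log2 ratio -0.97, 95% interval -1.04 to -0.90). It was counted within 2-fold here and as lower under 5 other scalings. NRF2 targets, which serve antioxidant defence, gave 7 higher, 9 within 2-fold and 1 lower of 17. Their share within 2-fold was 52.9%, under the 65.0% of all genes. The peroxiredoxin gene Prdx1 stayed high (888 scaled CPM in the 24 h library and 121 in BM). Genes of ER and integrated stress gave 8 higher and 9 within 2-fold of 19.

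Genes of the other marrow lineages stayed far below BM. The 12 lineage lists were each called lower, and 24 of 24 compared mature neutrophil genes, 13 of 13 neutrophil precursor genes and 25 of 25 erythroid genes were lower. Their median log2 ratios were -7.9, -10.22 and -10.9 in that order of lists. With genes at 0 counts placed at their bound of 3 counts, the medians were -7.9, -9.93 and -10.4. S100a9, a calcium-binding protein abundant in neutrophils, had 0.0537 scaled CPM in M-BMDM, 0.453 at 3 h, 0.291 at 24 h, and 11058 in BM (log2 ratio -15.22, 95% interval -16.53 to -14.17). Mpo, the myeloperoxidase of neutrophil granules, had 1 count in the 24 h library and 1724 scaled CPM in BM (log2 ratio -15.34, 95% interval -20.65 to -12.86). Elane, the neutrophil elastase, had 0 counts in the 24 h library and 598 scaled CPM in BM, at least 4798-fold lower.

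Erythroid genes were under 5 scaled CPM in every M-BMDM library. The beta globin gene Hbb-bs had 4.08 scaled CPM in M-BMDM, 2.31 at 3 h, 3.16 at 24 h, and 26613 in BM (log2 ratio -13.04, 95% interval -13.39 to -12.72), with reads that may be split with its close copy Hbb-bt. Slc4a1, the anion exchanger of the red cell membrane, had 0 counts in the 24 h library and 2441 scaled CPM in BM, at least 19601-fold lower. All 11 haem synthesis genes were lower as well, by less, with a median of -3.15.

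For B lineage and plasma cell genes, 21 of 22 were lower, and the exception was the adaptor gene Blnk (81 scaled CPM in the 24 h library and 45.6 in BM). For T and NK genes, 9 of 10 were lower, and for megakaryocyte and platelet genes 16 of 17. For eosinophil, basophil and mast cell genes the count was 13 of 14, for dendritic cell genes 9 of 11, and for stromal and endothelial genes 13 of 15. Prg2, the eosinophil major basic protein, had 1 count in the 24 h library and 2522 scaled CPM in BM (log2 ratio -15.89, 95% interval -21.19 to -13.41). Cxcl12, the stromal factor that retains blood cells in marrow, had 0.623 scaled CPM in the 24 h library and 318 in BM (log2 ratio -9.0, 95% interval -9.83 to -8.27).

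Monocyte genes were lower in 13 of 16, against 9 in M-BMDM, with medians of -3.44 and -2.09. Ly6c2, the surface marker of young monocytes, had 0.376 scaled CPM in M-BMDM, 0.453 at 3 h, 0.208 at 24 h, and 641 in BM (log2 ratio -11.59, 95% interval -13.22 to -10.37), with reads that may be split with its copy Ly6c1. The transcription factor gene Irf8 was within 2-fold (128 scaled CPM in the 24 h library and 218 in BM). Myeloid transcription factors were mixed, with 9 higher, 8 within 2-fold and 6 lower of 23; Cebpe, needed for granule formation in neutrophils, had 1.08 scaled CPM in the 24 h library and 147 in BM.

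Of 12 receptors for growth factors, 6 were lower than BM, 3 were within 2-fold and 3, with Csf1r, were higher. Of 15 receptors for attractants, 10 were lower, 2 were within 2-fold and 3 were higher. Among all genes, 17.7% were lower. Csf2ra and Csf2rb, the chains of the GM-CSF receptor, were within 2-fold, at 229 scaled CPM in the 24 h library and 209 in BM for Csf2ra and 259 scaled CPM in the 24 h library and 184 in BM for Csf2rb. Csf3r, the G-CSF receptor of neutrophils, had 45.1 scaled CPM in M-BMDM, 44.3 at 3 h, 33.5 at 24 h, and 554 in BM (log2 ratio -4.05, 95% interval -4.15 to -3.95). Cxcr2, a chemokine receptor of neutrophils, had 0.166 scaled CPM in the 24 h library and 246 in BM (log2 ratio -10.53, 95% interval -12.41 to -9.17). NADPH oxidase genes, shared by neutrophils and macrophages, were within 2-fold in 5 of 7 (71.4%, near the 65.0% of all genes) and in 6 of 7 in M-BMDM, among them at 24 h the catalytic subunit gene Cybb (728 scaled CPM in the 24 h library and 827 in BM). Integrin and adhesion genes were mixed at 6 higher, 8 within 2-fold and 3 lower of 17, and alternative activation genes at 5, 3 and 6 of 14 for the same classes.

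Among single genes outside the lists, those furthest above BM included Npy, a secreted peptide, with 103 scaled CPM in the 24 h library and 2 counts in BM (log2 ratio 10.29, 95% interval 8.44 to 13.34). Arhgap22, a regulator of Rac, had 69.1 scaled CPM in the 24 h library and 1 count in BM (log2 ratio 10.71, 95% interval 8.23 to 16.02). Dab2, an endocytic adaptor, had 673 scaled CPM in M-BMDM, 658 at 3 h, 935 at 24 h, and 2.8 in BM (log2 ratio 8.38, 95% interval 8.04 to 8.75). The collagen chain gene Col4a5 had 5.53 scaled CPM in M-BMDM, 6.71 at 3 h, 40.1 at 24 h, and 2 counts in BM (log2 ratio 8.93, 95% interval 7.07 to 11.98). Npy, Arhgap22 and Dab2 were already this high in M-BMDM, whereas Col4a5 was higher at 24 h than in the other M-BMDM libraries. The remaining highest genes were Creg2, Dagla, Fxyd2, Raet1e, Tmem171 and, from the core macrophage list, Gpnmb. Of these, Fxyd2 had 178 scaled CPM in M-BMDM, 190 at 3 h, 18.7 at 24 h, and 1 count in BM. The 10 lowest, among them Prg2 and Ltf, were all members of the marrow lineage lists.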

How the data were processed

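Total RNA of 6 mouse samples was sequenced on an Illumina instrument, per the labels' protocols, with 1 library per group. The deposited table, as the authors made it, holds estimated counts (expected counts) per gene that need not be whole. The submitters' processing notes name HISAT2, StringTie, DESeq2 and the GRCm38 build, without versions. For settings, strand use and annotation, nothing is stated (not given in the sources used here).

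Expected counts were rounded to whole numbers. The 742 rows without a gene name, 0.240% to 0.522% of a library, were left out. All 55536 named rows matched a GENCODE M21 identifier and 55509 had the same symbol there. Genes reaching 1 CPM in any library were analysed (14719). Libraries were scaled by TMM over all 6 (edgeR 4.0.16, R 4.3.3). Ratios of scaled counts carry exact 95% Clopper-Pearson intervals (scipy), and their calculation was tested on simulated data. A gene at 0 counts in 1 library has a bound in place of a fold, set by 3 counts there.

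The text names the 10 highest and 10 lowest counted genes with at least 10 scaled CPM, up to 4 counted genes and 3 within 2-fold per list, and fixed receptor and cycle genes; predicted, clone-based and antigen receptor genes were left out, and other genes are said to be chosen after their values were seen. Some genes the rule names are not reported here. The members and lists were chosen with earlier results of these data known. Alternatives covered scaling, rounding, the CPM minimum, the fold limit and the interval.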

Additional observations from a re-analysis of the deposited data

How the results depend on the processing

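No paired analysis was possible because each group had 1 library. Among the 3 gene counts and the numbers of lists at, above or below the marrow level (17, 8 and 18, the evenly split list counted under both), no count moved by over 1.5 times under the 5 other scalings, unrounded values, a minimum of 10 CPM or without the interval. Genes lower in the 24 h library numbered 3273 at a minimum of 1 CPM and 4576 with no filter. With a 1.5-fold limit, 3103 genes were higher and 9 lists were at the marrow level. With a 4-fold limit, 768 genes were higher, 1259 were lower, 26 lists were at the marrow level and 5 were higher. These changes follow from the limits themselves. Scaling by total counts without haemoglobin, immunoglobulin and mitochondrial genes moved the median log2 ratio of all genes by -0.17 and gave 6 lists another call. Calls of DNA replication and mitosis held under all 12 alternatives, and those of core macrophage, lysosomal hydrolase and the 12 lineage lists did too. Calls of the glycolysis, sterol, NRF2, ER stress and matrix lists changed with the scaling; the pro-inflammatory call became mixed under the haemoglobin-free scaling and with minimums below 5 CPM, and at the marrow level with the 4-fold limit, and the STAT3 target call became mixed with those minimums and at 1.5-fold. No named gene counted as different changed direction under the other scalings or without rounding. Depth limits genes with few counts: a ratio resting on 1 to 3 counts has an interval several log2 units wide.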
